A study of Mus musculus with 3 samples.

Results

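Liver tissue taken as a whole punch 1 day after irreversible electroporation (IRE) was compared with control tissue over the cell barcodes of the 2 libraries. The comparison covers the transcripts captured from the dissociated punch and not those of a selected cell type. The sums depend on which cells came through the preparation and are not read as the composition of the tissue. Barcodes with at least 200 detected genes were taken, which left 9253 barcodes in the library labelled 1 day and 10386 in the library labelled control, 19639 of the 25263 such barcodes of the series. The unique molecular identifiers (UMIs, tags that count each captured transcript molecule) of these barcodes were summed per gene in each library and scaled to 1000000 UMIs of that library (counts per 1000000 UMIs, CPM). The animals were adult C57BL/6 mice, with no further genotype in the labels. IRE, which kills cells in a confined area with short electric pulses, was applied to the liver surface as 8 pulses of 50 ms at 75 V and at intervals of 1 s according to the labels, and the tissue was taken with a punch of 4 mm. The control livers had sham surgery, were taken after 1 day according to the labels and gave an uninjured punch from the corresponding area. Each library was pooled from 3 livers after digestion with dispase, collagenase and DNase and lysis of red blood cells, and was made by Drop-seq, in which single cells share a droplet with a barcoded bead. The labels estimate 1000 cells behind the cDNA that was tagmented, far fewer than the barcodes kept. With 1 pooled library a side no test across animals was possible. All intervals given are 95% intervals that cover counting error only.

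Hepatocytes make up most of the liver's mass and secrete most plasma proteins, and their metabolic enzymes are divided between a periportal and a pericentral zone of the lobule. Sinusoids are lined by a fenestrated endothelium that clears waste from the blood, and Kupffer cells are the macrophages that reside in them. After injury, neutrophils and then monocytes enter from the blood, macrophages that clear debris switch on lysosomal and lipid-handling genes, and mesenchymal cells deposit collagen.

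The contents of the 2 libraries went against their labels. Transcripts that accompany injury and repair, among them those of collagens, of the matrix metalloproteinase Mmp12, of the lysosomal glycoprotein Gpnmb and of monocytes and neutrophils, were higher in the library labelled control, whereas the library labelled 1 day held more transcripts of hepatocytes, sinusoidal endothelium and Kupffer cells. Whether each file carries the label of its tissue cannot be settled from the files, and no library was assigned anew. The libraries are therefore called by their labels throughout, and each direction below is that between the labelled libraries. In the library labelled 7 days, which served only as a further reference, neutrophil markers took 4.36% of UMIs, above both, whereas collagens took 0.00709% and mesenchymal markers 0.00749%, below both. The label of that library was likewise taken as given, and the cause of its low matrix share was not tested. The library labelled control held 8013800 UMIs, with a median of 595 per barcode, and the library labelled 1 day 6107866 UMIs with a median of 509. They shared 68 barcode sequences, and mitochondrially encoded transcripts took 20.5% and 21.7% of UMIs. The labels name liver cells, and the hepatocyte, endothelial and macrophage markers of the liver were present in both libraries. Pairs of values below begin with the library labelled control. Fewer cells of a type and less RNA per cell cannot be told apart in sums over a punch.

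Of 11357 genes with at least 50 UMIs over the 2 libraries, 1389 were at least 2-fold higher in the library labelled 1 day, which is 12.2% of those measured, and 666 were at least 2-fold lower, which is 5.86%. These shares are the background against which the gene lists below are to be read. The median log2 ratio over all these genes was 0.04, and 9302 genes lay within 2-fold. 348 genes were at least 10-fold higher and 97 at least 10-fold lower. Genes were ranked by the bound of the interval nearest to 1. Among the 20 genes with the largest ratios were the enzymes and plasma proteins of hepatocytes described below, and beside them an immunoglobulin segment and a RIKEN transcript. Among the 20 with the smallest were genes of matrix-producing stroma and of macrophages, and beside them the stomach peptide gene Tff1 and the neuropeptide gene Npy, which had 121 and 0 UMIs.

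**Figure D1:**
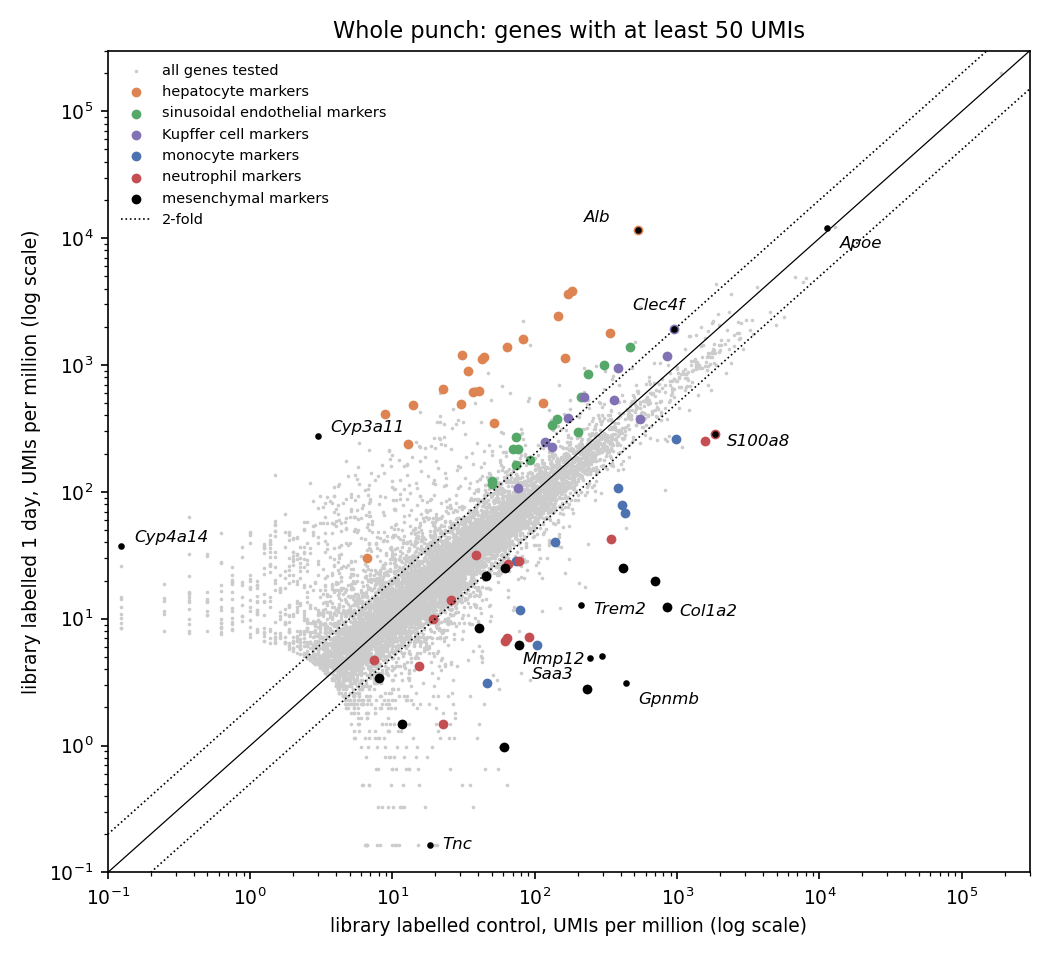
Each point is a gene with at least 50 UMIs over the 2 libraries, with its CPM in the library labelled control (horizontal, log scale) and in the library labelled 1 day (vertical, log scale); genes at 0 UMIs are drawn at the level of 1 UMI. Hepatocyte markers lie above the upper 2-fold line, mesenchymal, monocyte and most neutrophil markers below the lower one, and Apoe lies near the diagonal at 11364 against 12113 CPM.

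Hepatocyte markers took 0.217% against 3.61% of UMIs, a ratio of 16.6 (16.4 to 16.9), and all 22 markers were at least 2-fold higher in the library labelled 1 day, against 12.2% of all genes measured. Alb, which encodes albumin, the main protein of plasma, had 4270 UMIs (533 CPM) against 70674 UMIs (11571 CPM), a ratio of 21.7 (21.1 to 22.4). The retinol carrier Rbp4 and the thyroxine carrier Ttr stood at 47.0 against 859 CPM and 172 against 3656 CPM. The same direction held for Apoa1 and Apoa2, the structural proteins of high-density lipoprotein, at 146 against 2415 CPM and 184 against 3848 CPM. Ratios within the marker list ran from 4.38 for Hpx, the heme scavenger hemopexin, to 46.0 for Cyp2e1, the ethanol-oxidizing cytochrome P450. The list without Alb still had a ratio of 15. Both shares are those of captured transcripts, and the loss of hepatocytes in the preparation was not tested.

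The largest ratios among the higher genes were those of drug- and lipid-metabolizing enzymes. Cyp3a11, the main drug-oxidizing cytochrome P450 of mouse liver, had 24 UMIs (2.99 CPM) against 1678 UMIs (275 CPM), a ratio of 91.7 (61.4 to 144). The fatty acid hydroxylases Cyp4a10 and Cyp4a14 were nearly absent from the library labelled control, with 3 and 384 UMIs for Cyp4a10 and 1 and 229 UMIs for Cyp4a14, so that their ratios of 168 (57.0 to 818) and 300.5 (53.4 to 11919) are poorly bounded above. Acaa1b, a thiolase of peroxisomal fat oxidation, and Fabp1, the fatty acid carrier of hepatocytes, reached 4.74 against 174 CPM and 82.7 against 2239 CPM. Bhmt, which remethylates homocysteine, had 14 against 486 CPM. The organic anion transporter Slco1a1 had 4 and 198 UMIs. Members of families with near-identical copies stood among the same genes: the pheromone carriers Mup3 and Mup10 at 30.6 against 1196 CPM and 1.5 against 136 CPM, the protease inhibitors Serpina1a, Serpina1d and Serpina3k at 28.3-fold, 27.8-fold and 26.6-fold, and Cyp2c37, Cyp2c54 and Cyp2c69. Reads of such copies may have been divided between them by the counting, so that the value of a single copy is uncertain. The RIKEN transcript 1500017E21Rik had 3 and 196 UMIs.

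Among these genes Alb and Fabp1 have start regions with a GTTAAT element, the core of the site bound by hepatocyte nuclear factor 1, and are shown from RefSeq (GRCm38.p6), 250 bases before to 50 after the start, with that element or its reverse complement in capitals. The Alb window is chr5:90460620-90460919 and the Fabp1 window chr6:71199629-71199928, both on the plus strand.
Alb: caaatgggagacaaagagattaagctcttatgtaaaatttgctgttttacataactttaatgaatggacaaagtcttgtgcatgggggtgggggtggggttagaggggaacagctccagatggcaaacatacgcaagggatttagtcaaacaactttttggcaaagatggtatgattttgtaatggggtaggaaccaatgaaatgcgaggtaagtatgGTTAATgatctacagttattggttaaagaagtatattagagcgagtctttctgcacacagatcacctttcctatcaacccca
Fabp1: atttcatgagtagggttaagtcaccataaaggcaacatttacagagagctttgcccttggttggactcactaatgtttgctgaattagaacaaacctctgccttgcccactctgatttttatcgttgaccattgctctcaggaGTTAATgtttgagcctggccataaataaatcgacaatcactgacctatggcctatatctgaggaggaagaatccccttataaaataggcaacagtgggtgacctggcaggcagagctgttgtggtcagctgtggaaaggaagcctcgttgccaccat
The element was found on either strand in 7.10% of all 32851 such windows and in 4 of the 13 windows that could be matched to the 20 genes with the largest ratios. These 4 belong to Cyp2c69, Fabp1, Serpina1a and Serpina1d. Serpina1a and Serpina1d are near-identical copies, so their matches are not separate. The element was also in 3 of 19 windows of the 20 genes with the smallest ratios. A match describes the sequence and does not show binding.

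Both zones of the lobule were represented. Of periportal genes 15 of 15 were at least 2-fold higher in the library labelled 1 day, with 0.0145% against 0.206% of UMIs. Pck1, of gluconeogenesis, had 30.3 against 467 CPM, Uox, which oxidizes urate, 21.2 against 266 CPM, and Cps1, the entry enzyme of the urea cycle, 12.9 against 236 CPM. Of pericentral genes 12 of 14 were at least 2-fold higher, with 0.0298% against 0.159% of UMIs. Glul, the glutamine synthetase that pericentral hepatocytes share with macrophages and endothelium, was an exception at 168 against 163 CPM, as was Oat, of ornithine metabolism, at 41.6 against 72 CPM. Axin2, a Wnt target with too few UMIs to be counted among them, had 39 and 5 UMIs. Median log2 ratios were 3.95 for the periportal and 4.51 for the pericentral list.

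Bile acid and xenobiotic genes followed with 11 of 13 at least 2-fold higher and a median log2 ratio of 4.11. Cyp7a1, the rate-limiting enzyme of bile acid synthesis, had 4 and 87 UMIs, and Slc10a1, the transporter that takes bile acids up from blood, 31 and 663 UMIs. Ces1c, a secreted carboxylesterase, had 37.8 against 653 CPM. Gstp1, a glutathione transferase that is not restricted to hepatocytes, had 131 against 214 CPM. Coagulation genes were at least 2-fold higher in 14 of 17 cases, among them Serpinc1 (antithrombin) at 20.5 against 352 CPM, Kng1 (kininogen) at 49.4 against 528 CPM and F9 at 11 and 165 UMIs. F8, a product of endothelium, had a smaller ratio of 2.55. Of the apolipoproteins 11 of 12 were at least 2-fold higher, and Apoe, which macrophages also make in quantity, was the exception at 1.07. Apoe held most UMIs of that list, which had a ratio of 1.95 with it and 10.9 without it.

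Acute-phase genes did not share a direction. The liver secretes these proteins in inflammation, and 16 of 24 members were at least 2-fold higher and 4 at least 2-fold lower in the library labelled 1 day. The serum amyloid genes were on the low side, with 390 and 79 UMIs for Saa1, 294 and 34 UMIs for Saa2 and 1950 and 30 UMIs for Saa3. Saa3, the form made by macrophages and stroma, was 49.5-fold lower (34.6 to 73.6), and Lcn2, an iron-binding protein of neutrophils and inflamed epithelium, was 3.59-fold lower. Saa1 and Saa2 are close copies, and their division is uncertain. The fibrinogen chains Fga, Fgb and Fgg were higher by 6.70, 6.93 and 5.79, and Hamp, the iron hormone hepcidin, stood at 19.5 against 125 CPM.

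Of the plasma proteins that inflammation lowers, albumin among them, 9 of 9 were at least 2-fold higher at a median log2 ratio of 4.19, against 2.33 for the acute-phase list. Set per 1000 UMIs of the hepatocyte markers, a scale on which the amount of hepatocyte RNA is divided out, Fgb stood at 74.8 in the library labelled control and at 31.2 in the library labelled 1 day. On that scale haptoglobin (Hp) stood at 137 against 12.9 and Saa1 at 22.4 against 0.358. Alb was at 245 against 320.4 and Cyp3a11 at 1.38 against 7.61. Fgb, Hp and Saa1 were lower on it in the library labelled 1 day, and Alb and Cyp3a11 higher. Proteins that inflammation lowers did not all go with Alb: transferrin (Trf) was at 156 against 49.2, Fetub at 2.64 against 1.37 and Apoa1 at 67.3 against 66.9. This scale was chosen after the values had been seen, Fgb, Alb, Trf and Apoa1 are themselves among the markers that make it, and Hp is also made by myeloid cells. In the library labelled 1 day 1.27% of Saa1 UMIs lay in hepatocyte-gated barcodes, against 9.65% of Alb UMIs. The value of Saa1 is therefore not read as one of hepatocytes alone.

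Most hepatocyte UMIs did not lie in hepatocyte-gated barcodes. A barcode was gated as hepatocyte when it was gated to no other lineage and hepatocyte markers took at least 10% of its UMIs. This held for 5 barcodes of the library labelled control and 81 of the library labelled 1 day. The 10% alone was reached by 21 and 288 barcodes, of which the rest went to another gate by their markers. In the library labelled 1 day hepatocyte-gated barcodes held 9.03% of the hepatocyte marker UMIs, a share that depends on this order of gating. Macrophage-gated barcodes held 59.0% and endothelial-gated barcodes 22.5%. A hepatocyte marker UMI was found in 99.6% of its barcodes, against 37.3% in the library labelled control.

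After each barcode had been thinned to 300 UMIs, Alb was present in 77.0% of macrophage-gated, 78.6% of endothelial-gated and 75.9% of T cell-gated barcodes of the library labelled 1 day, at unthinned median depths of 545, 496 and 477 UMIs. These cell types do not make albumin, so the shares are read as background and not as expression, and the parts of free RNA and of doublets in them were not tested. In the library labelled control the corresponding shares were 4.58%, 4.42% and 4.78%. Barcodes under 200 genes, which were left out, carried hepatocyte markers at 0.125% against 2.48% of their UMIs. The hepatocyte marker share of a gate ran from 0.919% in conventional dendritic to 4.47% in macrophage barcodes of the library labelled 1 day, leaving aside the hepatocyte gate.

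Sinusoidal endothelial markers took 0.218% against 0.611% of UMIs, a ratio of 2.80 (2.75 to 2.85), and 12 of 14 were at least 2-fold higher in the library labelled 1 day. Clec4g, a lectin of the sinusoid, had 306 against 1008 CPM, Dnase1l3, a secreted DNase, 236 against 857 CPM, and the phosphatase Ptprb 468 against 1399 CPM. Lyve1, the hyaluronan receptor, had the smallest ratio at 1.47 and Oit3 the largest at 3.66. Markers of larger vessels had a ratio of 2.19, with the gap junction gene Gja4 at 88 and 268 UMIs and the stem and vessel antigen Cd34 on the other side at 157 and 58 UMIs, a ratio of 0.485 that was within 2-fold under 3 other settings, up to 0.659 with barcodes weighted equally.

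Secreted signals of the endothelium, which maintain the zonation of hepatocytes, were at the high end of the angiocrine and scavenger list, in which 8 of 15 were at least 2-fold higher and 0 lower. The Wnt ligand gene Wnt2 had 97 and 395 UMIs (5.34-fold, 4.27 to 6.74), Wnt9b of the central vein 18 and 81 UMIs (5.90-fold, 3.51 to 10.5), and Rspo3, which amplifies Wnt signals, 361 and 697 UMIs (2.53-fold). Bmp2, the endothelial inducer of hepcidin, had 137 against 381 CPM. The scavenger receptor Cd36 did not reach the 2-fold line at 323 against 259 CPM. Genes of endothelial activation went lower or stayed within 2-fold, with 3 of 11 at least 2-fold lower: Esm1, of tip cells, had 229 and 26 UMIs, Emp1 214 and 13 UMIs and Ctgf, a matricellular growth factor, 244 and 88 UMIs. The ratio of Ctgf, 0.473, was within 2-fold under 3 other settings. The adhesion molecules Icam1 and Vcam1 stood at 62.9 against 59.1 CPM and 190.2 against 156 CPM.

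Kupffer cell markers took 0.380% against 0.65% of UMIs, a ratio of 1.71 (1.68 to 1.74), and 5 of 10 were at least 2-fold higher. Clec4f, a lectin found on Kupffer cells alone, had 946 against 1920.0 CPM, close to the 2-fold line, which it did not pass under 3 other settings, with the lowest ratio, 1.66, from barcodes of at least 500 genes. Vsig4, a complement receptor, had 223 against 564 CPM, and Fcna, a ficolin, 387 against 955 CPM. Marco, a scavenger receptor, stood on the other side at 546 against 375 CPM. Markers that Kupffer cells share with other macrophages were level, with 0.440% against 0.433% of UMIs, and C1qb, of the complement starter C1q, had 1525 against 1441 CPM. Ms4a7, which marks macrophages derived from monocytes, was 6.10-fold lower (5.33 to 7.01).

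Genes of wound and lipid-associated macrophages were far lower in the library labelled 1 day, 8 of 15 by at least 2-fold. Gpnmb, a glycoprotein of lysosome-rich macrophages, had 3515 UMIs (439 CPM) against 19 UMIs (3.11 CPM), 141-fold lower (90.2 to 234) and the lowest in the ranking by the bound nearest to 1. Mmp12, the macrophage elastase, had 2371 and 31 UMIs and Trem2, a lipid receptor of these macrophages, 1678 and 78 UMIs. The galectin Lgals3 had 1079 against 227 CPM, the lipoprotein lipase Lpl 719.8 against 258 CPM and the lysosomal protease Ctsd 1727 against 635 CPM. The resistin-like Retnla had 90 and 2 UMIs.

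Not every member was low. Arg1, an arginase of both repair macrophages and the urea cycle of hepatocytes, was 2.82-fold higher at 131 against 368 CPM, and 9.07% of its UMIs in the library labelled 1 day lay in hepatocyte-gated barcodes, near the 9.65% of Alb. Spp1 (osteopontin) was level at 603 against 711 CPM. Ctsb, a cathepsin of all macrophages, held the most UMIs of the list at 2682 against 2167 CPM.

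The start regions of Gpnmb and Mmp12 hold a TGACTCA element, the binding sequence of AP-1 (Fos and Jun), and are shown from RefSeq (GRCm38.p6) over the same span, with the element or its reverse complement in capitals. The Gpnmb window is chr6:49036268-49036567 and the Mmp12 window, 1 of 2 listed for the gene, is chr9:7347124-7347423, both on the plus strand.
Gpnmb: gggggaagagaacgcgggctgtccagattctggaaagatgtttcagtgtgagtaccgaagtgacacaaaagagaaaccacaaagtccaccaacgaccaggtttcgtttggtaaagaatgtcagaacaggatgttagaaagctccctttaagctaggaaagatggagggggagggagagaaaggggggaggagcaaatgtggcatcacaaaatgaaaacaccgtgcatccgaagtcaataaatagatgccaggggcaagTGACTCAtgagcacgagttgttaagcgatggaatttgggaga
Mmp12: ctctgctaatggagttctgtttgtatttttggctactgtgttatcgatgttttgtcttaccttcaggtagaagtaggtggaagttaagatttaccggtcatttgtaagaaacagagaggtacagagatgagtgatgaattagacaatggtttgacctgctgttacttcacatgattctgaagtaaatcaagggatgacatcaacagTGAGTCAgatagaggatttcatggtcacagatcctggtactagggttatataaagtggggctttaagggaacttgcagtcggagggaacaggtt
The element was in 5.20% of all windows, in 2 of the 19 windows of the 20 genes with the smallest ratios and in 2 of the 13 windows of those with the largest. The latter 2 belong to Serpina1a and Serpina1d, which are near-identical copies.

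Monocyte markers took 0.264% against 0.0607% of UMIs, 4.35-fold lower in the library labelled 1 day (4.21 to 4.51), and all 9 were at least 2-fold lower. Ccr2, the receptor by which monocytes leave the marrow, had 411 against 78.9 CPM, the surface antigen Ly6c2, which has a near-identical copy, 387 against 108 CPM and Plac8 974 against 263 CPM. F13a1, the coagulation factor XIII of monocytes and macrophages, had 825 and 38 UMIs. Neutrophil markers took 0.422% against 0.0724% of UMIs, 5.84-fold lower (5.66 to 6.02), with 10 of 14 at least 2-fold lower and 0 higher. The alarmins S100a8 and S100a9 stood at 1829.7 against 287 CPM and 1561 against 251 CPM. Granule genes of immature neutrophils were among the lowest, Ltf with 182 and 9 UMIs and Camp with 730 and 44 UMIs, whereas Mmp9, Trem1 and Hdc did not pass the 2-fold line.

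The study followed integrins and their activation in the neutrophils of wounds. Of the genes it names, Itgam, the CD11b integrin chain, had 1392 UMIs (174 CPM) against 182 UMIs (29.8 CPM), 5.83-fold lower (4.99 to 6.84), and Cxcr4, the receptor for Cxcl12, 187 and 26 UMIs, 5.48-fold lower (3.63 to 8.61). Itgb2, the partner chain of Itgam, had 139 against 82.0 CPM. Fermt3 (kindlin-3), which activates integrins in blood cells, had 142 against 119 CPM, and the surface antigen Cd24a 58.0 against 55.8 CPM, a ratio of 0.962 whose interval of 0.834 to 1.11 takes in 1. Only 7.26% of Itgam UMIs in the library labelled control lay in neutrophil-gated barcodes and 51.0% in macrophage-gated barcodes, so most of the punch value of Itgam came from barcodes outside the neutrophil gate. In the library labelled 7 days Itgam stood at 942 and Cxcr4 at 37.3 CPM.

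Chemokines that draw monocytes were lower, 6 of 9 by at least 2-fold. Ccl8 had 737 UMIs (92.0 CPM) against 20 UMIs (3.27 CPM), 28.1-fold lower (18.1 to 46.3), Ccl9 1165 and 229 UMIs and Ccl12 145 and 13 UMIs. Ccl6, with the most UMIs of the list, and Ccl24 stayed within 2-fold at 514 against 339 CPM and 121 against 158 CPM. Of 6 genes of the neutrophil-recruiting list, 3 were at least 2-fold lower and 1 at least 2-fold higher. Cxcl1 had 78 and 12 UMIs, Cxcr2, the receptor of such chemokines, 621 and 173 UMIs and Cxcl2 465 and 301 UMIs. Cxcl3 was the higher one at a ratio of 2.42, which came to 0.847 with at most 20% mitochondrial UMIs. Lymphocyte chemokines stayed within 2-fold in all but 1 of 8 cases: Ccl5 had 471 against 372 CPM and Cxcl9 272 against 143 CPM. The exception, Ccl21a, which has near-identical copies, had 35 and 68 UMIs and changed sides when only barcodes with at least 500 genes were taken. Among cytokine and NF-κB genes 7 of 19 were at least 2-fold lower and 0 higher. The lectin Clec4e had 339 and 30 UMIs and the survival gene Bcl2a1b, 1 of several near-identical copies, 1015 and 253 UMIs, whereas Il1b, the main inflammasome cytokine, was at 125 against 96.3 CPM and Nfkbia at 456 against 380.2 CPM.

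**Figure D2:**
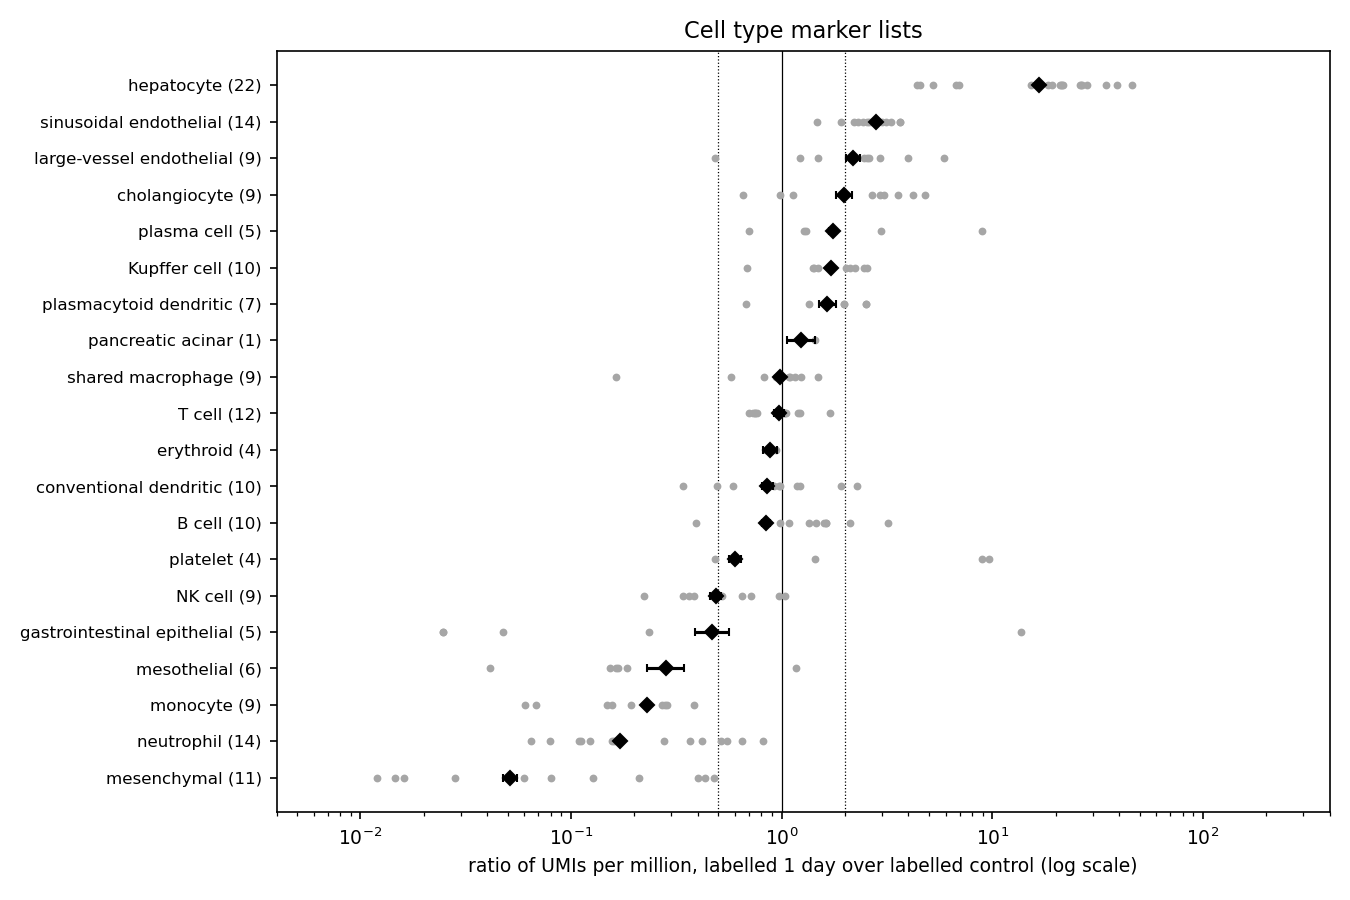
Ratios of CPM, the library labelled 1 day over the library labelled control (log scale), for each cell type marker list. Diamonds are summed lists with 95% counting intervals, grey points are members with at least 50 UMIs (their number in brackets), members at 0 UMIs in 1 library are drawn at the bound that a floor of 3 counts gives, and dotted lines mark 2-fold; the hepatocyte list lies at 16.6 and the mesenchymal list at 0.0514.

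Mesenchymal markers had the smallest ratio of the 20 cell type lists, with 0.251% against 0.0129% of UMIs, 19.5-fold lower (18.1 to 20.9) in the library labelled 1 day. All 11 markers with at least 50 UMIs were at least 2-fold lower, against 5.86% of all genes measured. The fibrillar collagen chains stood at 1859 UMIs (232 CPM) against 17 UMIs (2.78 CPM) for Col1a1, 6745 UMIs (842 CPM) against 75 UMIs (12.3 CPM) for Col1a2 and 5613 UMIs (700.4 CPM) against 121 UMIs (19.8 CPM) for Col3a1. The proteoglycans Dcn and Lum had 3350 and 153 UMIs and 490 and 6 UMIs. Stellate cell genes were few in both libraries, Reln with 22 and 5 UMIs and Lrat with 13 and 3 UMIs, and Lhx2, a stellate cell factor, was at 0 in both, so the values of the list are mostly those of matrix genes. In the library labelled control 83.1% of Col1a2 UMIs and 87.1% of Postn UMIs lay in mesenchymal-gated barcodes.

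The wider matrix lists held genes of several cell types, which did not share a direction. Of the collagens 10 of 13 were at least 2-fold lower, Col5a1 with 315 and 7 UMIs and Col6a2 with 323 and 9 UMIs among them. The basement membrane chains Col4a1 and Col4a2 were level at 136 against 164 CPM and 65.8 against 80.9 CPM, and Col18a1, whose fragment is endostatin, was 3.95-fold higher at 146 and 439 UMIs. Among glycoproteins Postn (periostin) had 441 and 4 UMIs and Tnc (tenascin C) 146 and 0 UMIs, at least 37.1-fold lower when the count of 0 is set at the floor of 3 counts in that library. Sparc and Fn1 (fibronectin) had 1022 against 455 CPM and 231 against 99.9 CPM, Sparc within 2-fold when barcodes were weighted equally. On the other side, Vtn (vitronectin), a product of hepatocytes, had 28.0 against 345 CPM and Igfbp7, abundant in endothelium, 506 against 1512 CPM.

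Enzymes of matrix turnover were lower too, 10 of 19 by at least 2-fold and 0 higher. Timp1, an inhibitor of metalloproteinases, had 283 and 3 UMIs (71.9-fold lower, 24.4 to 351), and the collagenase Mmp8 of neutrophils 491 and 41 UMIs. Mmp14, which frees matrix at cell surfaces, and Timp2 had 157 against 67.5 CPM and 173 against 54.0 CPM. Timp3, with the most UMIs of the list, and the transglutaminase Tgm2 were within 2-fold at 180.1 against 266 CPM and 148 against 156 CPM. Among the 20 genes with the smallest ratios were further stromal genes: Ptn (pleiotrophin) with 510 and 3 UMIs, the microfibril gene Mfap5 with 295 and 2 UMIs, Aspn with 358 and 4 UMIs, Cpxm1 with 164 and 1 UMIs and Ltbp2, which binds latent TGF-β, with 89 and 0 UMIs. The imprinted RNAs H19 and Meg3 had 248 and 3 UMIs and 458 and 6 UMIs.

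Mesothelial markers, of the liver capsule, were lower by 3.55-fold, with 5 of 6 at least 2-fold lower. Upk3b had 168 and 21 UMIs and Wt1 95 and 3 UMIs. Of the integrins, 15 of 17 stayed within 2-fold. Itga8 was the 1 member at least 2-fold higher, with 155 and 379 UMIs, and Itgam the 1 at least 2-fold lower. Growth factors were mixed: Igfbp2, which hepatocytes secrete, had 33 and 685 UMIs, Igf1 282 against 508 CPM, and Tgfb3 105 and 9 UMIs.

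Lymphocyte lists did not share a direction. T cell markers took 0.0391% against 0.0379% of UMIs, with none of 12 past 2-fold, Trbc2 at 99.5 against 103 CPM and Cd3d at 68.9 against 51.2 CPM. Erythroid markers, which red cell lysis leaves few of, took 0.0208% against 0.0183% of UMIs, and B cell markers 0.0622% against 0.0527% of UMIs. The B cell ratio of 0.846 rested on Ighm and was 1.57 without it. Plasma cell markers had a ratio of 1.75. Ighm, the heavy chain of IgM, was lower at 381 against 149 CPM, and the receptor chain Cd79a higher at 60 and 147 UMIs. NK cell markers were 2.05-fold lower, with 4 of 9 at least 2-fold lower. The list was within 2-fold under 2 other settings and only 1.39-fold lower without Gzma. Gzma had 291 against 98.4 CPM and Eomes 89 and 15 UMIs. Plasmacytoid dendritic markers had a ratio of 1.65, Siglech with 310 and 467 UMIs, and conventional dendritic markers one of 0.857, Xcr1 with 364 and 328 UMIs and Clec10a with 252 and 65 UMIs.

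Igha, the heavy chain of IgA, had 258 UMIs (32.2 CPM) against 1750 UMIs (287 CPM), over 32 and 326 barcodes, and a single barcode held 53.5% of the UMIs in the library labelled control. Its ratio was 8.90, and 16.3 without the barcode with the most Igha UMIs in each library. Other large differences rested on few barcodes. All 87 UMIs of the variable segment Igkv8-27 lay in 7 barcodes of the library labelled 1 day. The platelet genes Ppbp and Gp1bb had 24 and 164 UMIs and 9 and 66 UMIs, of which 1 barcode held 90.2% and 92.4% in the library labelled 1 day. In the library labelled control the stomach genes Tff1 and Gkn1 had 159 and 83 UMIs, with 78.6% and 66.3% in 1 barcode, and none in the other. Apart from Igha, these values are those of a few barcodes and not of the punch. Pancreatic genes were near 0 in both but for Cela1, which is not restricted to the pancreas, at 293 and 323 UMIs.

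**Figure D3:**
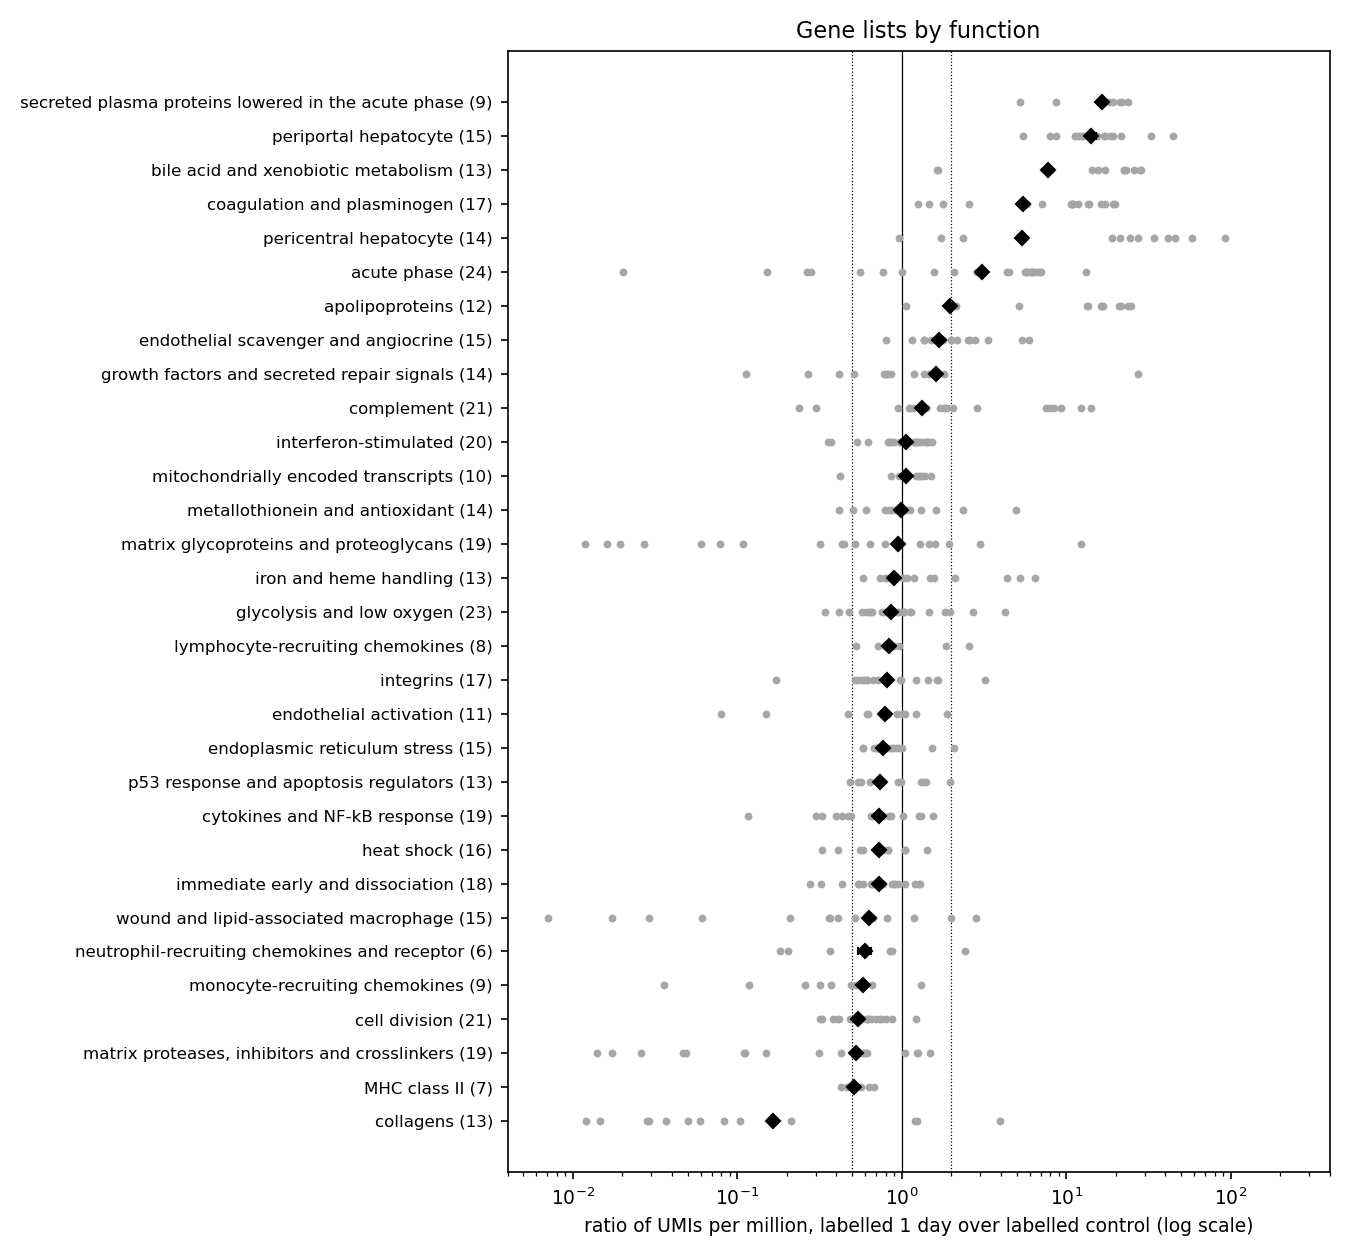
Ratios of CPM, the library labelled 1 day over the library labelled control (log scale), for gene lists by function, with symbols as for the cell type lists; lists of Xist and Y-linked genes and of nuclear RNAs are left out. Lists of hepatocyte products lie at the top, up to 16.5, most stress and inflammatory lists between 0.5 and 1, and the collagens at 0.164.

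Stress genes were moderately lower in the library labelled 1 day. Heat shock genes, whose regulator the study inhibited in wounds, took 0.625% against 0.451% of UMIs, Hsp90aa1 with 648 against 264 CPM and Hspa8 with 1147 against 854 CPM. Immediate early genes, which tissue digestion also induces, took 0.219% against 0.158% of UMIs, Fos with 253 against 109 CPM and Atf3 with 108 against 30.1 CPM, while Jun was at 298 against 281 CPM. Genes of endoplasmic reticulum stress took 0.576% against 0.442% of UMIs, Hspa5 with 1269 against 732 CPM. The part of digestion in these values was not tested.

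MHC class II genes took 0.814% against 0.418% of UMIs, 1.95-fold lower, H2-Eb1 with 1651 against 699 CPM and the invariant chain Cd74 with 1561 against 983 CPM. Cell division genes took 0.275% against 0.148% of UMIs, 6 of 21 at least 2-fold lower and 0 higher: Mki67, expressed in cycling cells, had 265 against 102 CPM, Top2a, which untangles DNA, 264 against 86.0 CPM and Hmgb2 827 against 261 CPM. Ccnd1, a G1 cyclin, was at 181 against 221 CPM. Interferon-stimulated genes were level with a ratio of 1.06, Ifitm3 at 1133 against 1334 CPM, although the guanylate-binding protein Gbp2 and the nucleic acid sensor Zbp1 were lower at 186 against 68.4 CPM and 107 against 38 CPM.

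Genes of glycolysis and low oxygen had a ratio of 0.855, with 2 at least 2-fold higher and 3 lower. Vegfa, the growth factor of vessels, had 51 and 164 UMIs, the lactate transporter Slc16a3 165 and 43 UMIs and Ldha 340.3 against 323 CPM. The p53 and apoptosis list had a ratio of 0.739, Mcl1 with 268 against 145 CPM. Antioxidant genes were level at 0.992, but catalase (Cat) was higher at 59.5 against 293 CPM and Prdx5 lower at 598 against 300.3 CPM. Ferritins, the iron stores, had 4508 against 2630.4 CPM for Fth1 and 6769 against 4971 CPM for Ftl1. Complement genes of hepatocytes were higher, Mbl1 (mannose-binding lectin) with 27 and 292 UMIs, and the receptors C5ar1 and C3ar1 of myeloid cells lower with 322 and 58 UMIs and 1008 and 231 UMIs. Mitochondrially encoded transcripts had a ratio of 1.06, with mt-Rnr1, the small ribosomal RNA, at 4909.7 against 2067 CPM. Xist, of the inactive X chromosome, had 2020 and 2204 UMIs, and the Y-linked Ddx3y and Eif2s3y 0 and 0 UMIs and 0 and 1 UMIs.

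Each barcode was next assigned to the lineage with the most different markers, at least 2, and left ungated at a tie. Of 13 gates, 2 took a share of barcodes at least 2-fold higher in the library labelled 1 day and 7 a share at least 2-fold lower. The endothelial gate took 15% (14.3 to 15.7) against 35.3% (34.3 to 36.3) of barcodes and the macrophage gate 32.9% against 42.4%. The monocyte gate took 14.6% against 0.735%, the mesenchymal gate 4.43% against 0.151% and the neutrophil gate 3.94% against 0.702%. The shares of the gates just named had the direction of the UMI sums of the same lineages, but not always their size. The monocyte gate was 19.9-fold lower and the monocyte marker UMIs 4.35-fold. Of Plac8 UMIs 51.1% lay in monocyte-gated barcodes of the library labelled control, against 6.65% in the library labelled 1 day. There 50.8% lay in macrophage-gated and 19.5% in endothelial-gated barcodes. A lower share of a gate is therefore not read as a loss of cells. The hepatocyte gate, open only to barcodes of no other gate, took 0.0481% against 0.875%, and 18.4% against 15.6% stayed ungated.

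For lymphoid gates, shares and sums parted. The T cell gate took 3.44% against 1.22% of barcodes while T cell markers held a level share of UMIs, and after thinning to 300 UMIs its ratio was 0.528 instead of 0.355 and no longer past 2-fold. No order is read from it. The NK cell gate took 2.18% against 0.227% and the conventional dendritic gate 1.71% against 0.508%. The plasmacytoid dendritic gate took 0.635% against 0.432%, a ratio of 0.680 (0.447 to 1.02), whereas its markers had a ratio of 1.65 in the UMI sums. The cholangiocyte gate was level at 0.587% against 0.519%, its markers Epcam and Sox9 at 130 and 289 UMIs and 69 and 161 UMIs. The mesothelial gate rests on 12 and 1 barcodes. Gates with markers of a second lineage may hold doublets, which were not called.

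**Figure D4:**
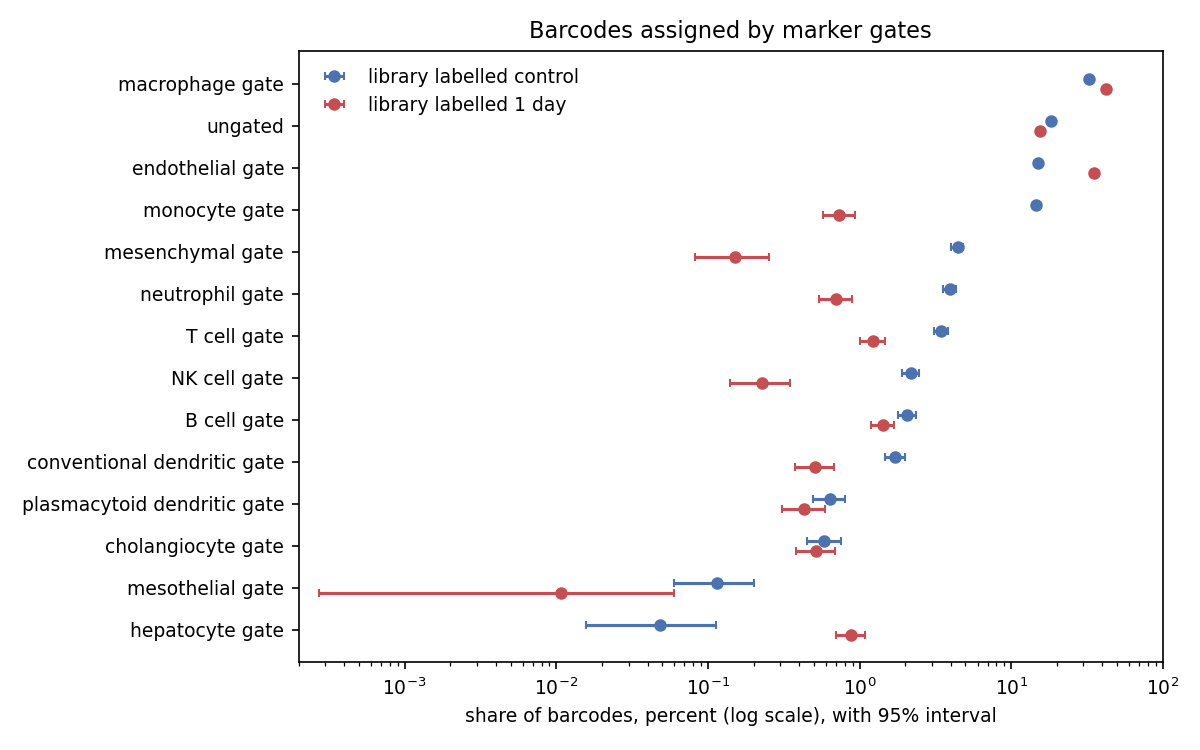
Share of barcodes (percent, log scale) that each marker gate took in the library labelled control (blue) and in the library labelled 1 day (red), with 95% counting intervals. The endothelial gate is at 15% and 35.3%, the monocyte gate at 14.6% and 0.735%.

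Within macrophage-gated barcodes the comparison was repeated to see which differences of the punch were also found inside a lineage, scaled to the 3299030 and 2911277 UMIs of the gate. Of 8996 genes, 1185 were at least 2-fold higher (13.2%) and 420 at least 2-fold lower (4.67%) in the library labelled 1 day. Wound and lipid-associated genes were lower here in 11 of 14 cases and took 1.80% against 0.704% of UMIs. Gpnmb had 2954 and 14 UMIs, Mmp12 1991 and 20 UMIs and Saa3 1101 and 13 UMIs. Npy had 97 and 0 UMIs and Tff1 132 and 0 UMIs, the latter from few barcodes. Atp6v0d2, a subunit of the lysosomal proton pump, had 552 and 13 UMIs, the lysosomal tetraspanin Cd63 2332 and 95 UMIs and Trem2 1355 and 58 UMIs. MHC class II genes were lower in 4 of 7 cases and monocyte chemokines in 7 of 9.

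At 300 UMIs per barcode, a Gpnmb UMI was found in 12.1% (11 to 13.3) of macrophage-gated barcodes of the library labelled control and in 0.105% of those of the library labelled 1 day, and unthinned in 21.2% and 0.230%. Endothelial-gated barcodes, which should lack the gene, gave 2.31% and 0 of 3136 barcodes, which at the floor of 3 counts allows a share of up to 0.0957%, and unthinned 4.95% and 0.0613%. For Trem2 the thinned shares of macrophage-gated barcodes were 9.76% against 0.654%, and for Lgals3 26.2% against 9.34%. Unthinned, the shares were 21.9% against 1.43% for Trem2 and 46.0% against 17.6% for Lgals3. After thinning, Gpnmb and Trem2 were thus found in under 1% of macrophage-gated barcodes of the library labelled 1 day. Lgals3 was found in a lower share than in the library labelled control, but in many barcodes of both. Thinning left out 51 and 95 barcodes of the gate, whose median depths were 756 and 545 UMIs.

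**Figure D5:**
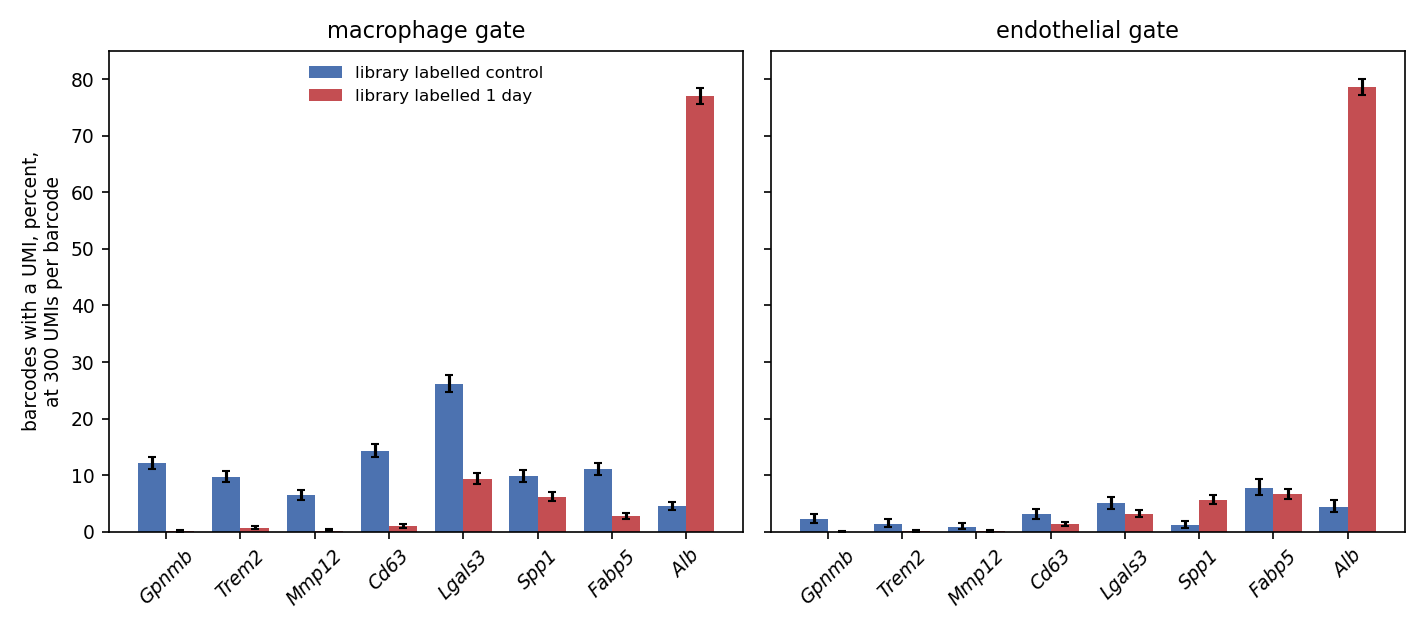
Share of barcodes with a UMI of each gene (percent, bars from 0 with 95% counting intervals) after thinning to 300 UMIs, in macrophage-gated (left) and endothelial-gated (right) barcodes of the library labelled control (blue) and of the library labelled 1 day (red). In the macrophage gate Gpnmb is at 12.1% and 0.105%, and Alb is near 77.0% and 78.6% in both gates of the library labelled 1 day.

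The genes with the largest ratios in macrophage-gated barcodes were transcripts of other cells. Among the 6 with the largest ratios, hepatocyte markers left out, were Cyp4a10, Cyp4a14, Mup10, Cyp3a11 and Car3, hepatocyte transcripts, Car3 (a carbonic anhydrase) with 37 and 1446 UMIs. Of the 1185 higher genes 766 had a higher level in hepatocyte-gated barcodes than in the gate, and of the 420 lower genes 58 did. The share over all 8996 genes is not given here, so the 766 are not read against a background. Among the others were endothelial genes, Ehd3 with 227 and 1690 UMIs, Ptprb with 386 and 2547 UMIs and Oit3 with 45 and 386 UMIs. The hepatocyte marker share of the gate was 0.365% against 4.47% of UMIs. The part of free RNA and of doublets in these ratios was not tested.

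Within endothelial-gated barcodes 602 of 6769 genes were at least 2-fold higher (8.89%; 304 when barcodes with over 20% mitochondrial UMIs were left out) and 149 at least 2-fold lower (2.2%). The gate held 996552 and 1933159 UMIs. Esm1, the endothelial proteoglycan of sprouting vessels, had 168 and 14 UMIs, Ctgf 151 and 40 UMIs and the interferon-induced chemokine Cxcl9 1123 and 407 UMIs. Gpnmb, Col1a1, Col1a2, Col3a1 and Mmp12, transcripts of other lineages, were lower here as well, Col1a2 with 171 and 12 UMIs. Collagens took 0.134% against 0.0513% of UMIs. Col4a1, a basement membrane chain that was level in the punch, had 588 and 549 UMIs in this gate. Its ratio was 0.481 (0.428 to 0.542) here and 3.26 (2.62 to 4.08) in the macrophage gate. Scavenger and angiocrine genes outside the gate markers did not follow the punch: none of 12 passed 2-fold, Bmp2 with 865 and 1422 UMIs (a ratio of 0.847 in CPM) and Wnt2 with 70 and 231 UMIs (1.70), and the list had a ratio of 0.791. MHC class II genes, lower within the macrophage gate, had a ratio of 1.02.

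Here too the largest ratios were those of other lineages. Of the 602 higher genes 477 had a higher level in hepatocyte-gated barcodes, and of the 149 lower genes 20 did. The share over all 6769 genes is not given here either. Car3, Fabp1, Cyp2c69, Cyp3a11 and Ces1c were among the highest, Fabp1 with 18 and 3084 UMIs. Beside them stood Kupffer cell transcripts, Clec4f with 146 and 1266 UMIs and Cd5l with 132 and 807 UMIs, and Igha with 3 and 292 UMIs. The hepatocyte marker share of this gate was 0.0591% against 2.56%, and its part in the ratios was not tested.

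The values compare 2 pooled libraries and not animals, and the spread between livers is unknown.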

How the data were processed

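Liver punches of 1 control, 1 IRE day 1 and 1 IRE day 7 library were sequenced by Drop-seq. The authors deposited UMI counts per gene and barcode, made with STAR 2.5.2a per the labels and with DigitalExpression of the Drop-seq tools per the file headers, on coding and UTR bases of the sense strand, with reads of mapping quality 10 or above and barcode tags merged at an edit distance of 1. The submitters' notes name the build hg19 although gene symbols are those of mouse, so that no count is given a coordinate.

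Barcodes with at least 200 genes were kept, counts were summed with Python 3.11.15 and numpy 2.4.6, and values scaled to 1000000 UMIs (CPM) were compared for genes with at least 50 UMIs over both libraries. Ratios have exact conditional binomial, shares Clopper-Pearson intervals (scipy 1.17.1) at 95%, and a count of 0 was set at 3 counts. In data simulated for the whole punch over 11360 genes as independent Poisson counts, 95.8% of intervals held the true ratio. This checks the calculation only, because UMIs of some genes were clumped in few barcodes and the simulated counts were not. Doublets were kept. Named were the 20 largest and smallest ratios, 4 members with the most UMIs and the extreme members of each list, the 6 extremes of each gate on either side, and 5 genes the study names. Others, such as Saa1, Fetub, Trem2, Cd63, Ehd3 and Wnt2, were chosen after their values had been seen. Some genes that the rule names are not reported here. The gene lists and the comparison were chosen with earlier results of these data known. Barcodes were gated by marker counts, and barcodes thinned without replacement. Filters on barcodes, scalings, UMI minima and gates were varied as alternatives.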

Additional observations from a re-analysis of the deposited data

Results flagged for a closer look

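Spp1 and the protocadherin gene Pcdh17 had opposite directions in the 2 gates, with the whole interval past 2-fold on both sides, and the difference between gates was not tested. Among macrophage-gated barcodes Spp1 had 3296 UMIs in the library labelled control and 1030 in the library labelled 1 day, a ratio of 0.354 (0.330 to 0.380). Among endothelial-gated barcodes it had 87 and 593 UMIs, a ratio of 3.51 (2.80 to 4.45). Pcdh17 had 37 and 111 UMIs in the macrophage gate, a ratio of 3.40 (2.32 to 5.07), and 322 and 190 in the endothelial gate, a ratio of 0.304 (0.253 to 0.365). They were the 2 such genes among 6603 measured in both gates, and 16 genes were past 2-fold in opposite directions without regard to the interval. Endothelial genes such as Ptprb and Oit3 were also higher in the macrophage gate of the library labelled 1 day. The part of free RNA and of doublets in these opposite directions was not tested, so they are not read as regulation within a cell type.

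Barcodes with fewer than 200 genes enter only the alternatives that take every deposited barcode. In the library labelled 1 day they carried transcripts of some cell types above the level of such barcodes in the library labelled control. There hepatocyte markers took 2.48% of their UMIs against 0.125%, sinusoidal endothelial markers 0.541% against 0.169% and Kupffer cell markers 0.436% against 0.118%. Neutrophil and mesenchymal markers differed the other way, at 0.0865% against 1.01% and 0.0130% against 0.0711%.

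The library labelled 7 days, used only as a reference, carried neutrophil markers at 4.36% of UMIs against 0.422% in the library labelled control, monocyte markers at 0.688% against 0.264% and platelet markers at 0.110% against 0.0357%. In the library labelled control Pf4 held 2799 of the 2864 UMIs of the platelet list. Of these Pf4 UMIs 86.0% lay in macrophage-gated barcodes, so the platelet sum is not read as a measure of platelets.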

How the results depend on the processing

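Of 15 marker and gene lists past 2-fold, the hepatocyte markers not counted, 13 stayed so under every alternative applied to them, and of 152 named genes past 2-fold 131 did. The NK cell list came to 0.517 when scaled without hepatocyte and mitochondrial transcripts and to 0.513 without the 1 percent of barcodes with the most UMIs. With barcodes of at least 500 genes the gastrointestinal epithelial list changed sides to 1.78, as did Iglv1 (0.733), Tff2 (1.44) and Ccl21a (0.410), and 7 instead of 3 cell type lists were past 2-fold on the higher side. With at most 20% mitochondrial UMIs there were 6, Cxcl3 came to 0.847 instead of 2.42, and the endothelial gate had 304 higher genes instead of 602. Gp1bb came to 0.606 without the 1 percent of barcodes with the most UMIs, and, in an alternative added after the data had been seen, to 0.820 without the barcode with the most UMIs of the gene. The causes were not tested.

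The hepatocyte ratio was 16.6 and came to 17.6 with at least 500 genes, 17.5 with at most 20% mitochondrial UMIs, 20.9 without the 1 percent of barcodes with the most UMIs, 16.9 scaled without mitochondrial transcripts, 17.7 scaled without hepatocyte markers too, 16.0 with median-of-ratios size factors and 18.4 with barcodes weighted equally. Genes past 2-fold numbered 746 higher and 338 lower at a minimum of 200 UMIs, where fewer genes were measured, and 921 and 365 when the whole interval had to pass. Without genes of higher level in hepatocyte-gated barcodes, also added after the data had been seen, 419 genes were higher in the macrophage gate and 125 in the endothelial gate. Scaling without hepatocyte and mitochondrial transcripts put the median log2 ratio of all genes at 0.13 instead of 0.04. No paired analysis was possible because each group has 1 library, which also leaves no replicate to take out. Depth limits genes of few UMIs, and intervals hold counting error only.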

Other observations

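Complement genes did not share a direction. Terminal components made by hepatocytes were higher in the library labelled 1 day, C8a with 38 and 243 UMIs, a ratio of 8.39 (5.94 to 12.1) and C9 with 70 and 403 UMIs, a ratio of 7.55 (5.85 to 9.88). C3, the central component, had a ratio of 2.86. The C1q chains of macrophages were near level, with C1qa at 1.10 and C1qc at 1.16. In the whole list 8 of 21 genes were at least 2-fold higher and 2 lower.

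Of the iron-handling genes, transferrin (Trf) stood at 339.5 against 1778 CPM, the exporter Slc40a1 (ferroportin) at 360.4 against 535 CPM and heme oxygenase Hmox1 at 79.1 against 62.7 CPM. Platelet-derived growth factor A (Pdgfa) had 205 and 65 UMIs, and Gdf15, a stress-induced cytokine, 72 and 28 UMIs. Bile duct markers were at least 2-fold higher in 6 of 9 cases, Tm4sf4 with 97 and 353 UMIs, a ratio of 4.77 (3.80 to 6.04), while the duct keratins Krt7 and Krt19 had ratios of 1.14 and 0.982. The nuclear RNA Malat1 was level at 12916 against 12308 CPM. These genes were chosen after their values had been seen.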
